A study of Mus musculus with 6 samples.

Results

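The 26S proteasome is the protease that degrades ubiquitin-tagged proteins in the cytosol and nucleus. Its barrel-shaped core particle is made of alpha rings, which gate entry, and beta rings, which hold the cutting sites. A base of ATPases unfolds the substrate and a lid removes its ubiquitin, and separate activators (PA28 and PA200) can cap the core in place of the base and lid. The 36 genes described here are constitutive proteasome subunits and activators listed by symbol and matched to Ensembl identifiers through GENCODE M21. The list is not complete, and Sem1 was read with the associated factors instead. They comprise 7 alpha ring, 7 beta ring, 10 base, 8 lid and 4 activator genes out of 53465 genes in the deposited count table. All 36 had enough counts to be tested, among 8200 tested genes.

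Ribosome profiling, which sequences the short mRNA pieces that translating ribosomes shield from nuclease, was applied to ID8 cells, a tumour-forming line that arose from ovarian surface epithelium of the mouse. The 3 libraries labelled KO came from cells given a guide RNA against Nat10, the acetyltransferase that makes N4-acetylcytidine in RNA, and the 3 labelled WT from cells given a control guide. All 6 were treated with cycloheximide shortly before harvest. The labels do not say whether the cells were a clone or a pool, or whether replicates were separate cultures. The p-values below therefore cover the spread between these libraries, which may be technical.

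Total counts ran from 2234305 to 3126208 in the KO libraries and from 1687466 to 2148715 in the WT libraries. Gene counts had a local peak at 42 to 60 in KO libraries and at 15 to 39 in WT libraries, and a count divided by its library's peak is called molecule equivalents here. Nat10 averaged 106 ± 43.1 CPM in KO libraries and 112 ± 53.1 CPM in WT libraries (SD, n = 3 each; CPM is the count scaled to a common library total with TMM factors), so its footprints did not differ detectably and directions below refer to the labels. Krt18, Krt19 and Msln, markers of the line, had counts of 239 or more in every library. Krt8, another marker, had 1, 74 and 251 counts in KO libraries and 413, 346 and 293 in WT libraries. Krt7 had at most 6, and 5 markers of leukocytes and endothelium had at most 29. Krt8 averaged 36.6 CPM in KO libraries and 198 CPM in WT libraries, Krt18 154 CPM in KO libraries and 515 CPM in WT libraries, Krt19 2223 CPM in KO libraries and 4202 CPM in WT libraries, and Msln 1636 CPM in KO libraries and 789 CPM in WT libraries. Their part in the values below was not tested.

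The proteasome genes took a smaller share of footprints in every KO library than in any WT library. The 36 genes together held 0.569%, 0.630% and 0.579% of all counts in KO libraries, against 0.685%, 0.674% and 0.711% in WT libraries. Their summed level was 5645, 6024 and 5611 CPM in KO libraries and 7032, 7239 and 7450 CPM in WT libraries, a ratio of means of 0.796. These levels are relative to the whole library, so they also depend on the footprints of all other genes. Less mRNA per cell and fewer ribosomes per mRNA cannot be told apart in these bulk libraries. The sum was 345, 306 and 301 molecule equivalents in KO libraries and 771, 690 and 330 in WT libraries. Whole libraries held 60506, 48572 and 52103 molecule equivalents in KO and 112498, 102320 and 46442 in WT. Depth on that scale was thus higher in WT replicates 1 and 2 than elsewhere, and the groups overlapped. WT replicate 3, whose depth was near that of the KO libraries, had the highest share of all 6. The part of depth in the lower KO share was not tested.

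Gene by gene, 29 of the 36 had a negative log2 fold change (KO over WT) and 7 a positive one, with a median of -0.29. Over all tested genes 51.0% were negative and the median was -0.016. No proteasome gene passed edgeR's quasi-likelihood test at an adjusted p under 0.05, where 0.402% of all tested genes did (0.22% lower and 0.183% higher in KO libraries). At an unadjusted p under 0.05 there were 5, namely Psmd2, Psma6, Psmc1, Psmc2 and Psmd14, all lower in KO libraries (13.9%, against 3.79% of all tested genes in that direction, 2.7% in the other and 6.49% in both together). A difference of 2-fold or more was fitted for 2 of the 36, Psmd2 and Psme2, and for 26.9% of all tested genes. Psme2 had WT counts of 2, 67 and 0, too few for its fold to be relied on. DESeq2 called 2 of the 36, Psmd2 and Psma6 (2.97% of all genes given an adjusted p), and limma-voom called none. Every KO library lay below every WT library for 6 of the 36 (16.7%, against 7.93% of all tested genes) and above for 1 (2.78%, against 6.94%). The median standard error was 0.38 over the 36 and 0.99 over all tested genes. These shares therefore compare genes measured with unlike precision.

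In each KO library 23 to 26 of the 36 genes lay below their WT mean (KO replicate 1 had 26, replicate 2 had 23 and replicate 3 had 26), where 53.3% to 54.4% of all tested genes did so. In each WT library 23 to 26 of the 36 lay above their KO mean, against 44.8% to 49.8% of all tested genes. Each of the 6 libraries thus leaned the same way. These counts reuse the libraries that gave the fold changes, so they are not separate support, and their size was not tested.

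**Figure D1:**
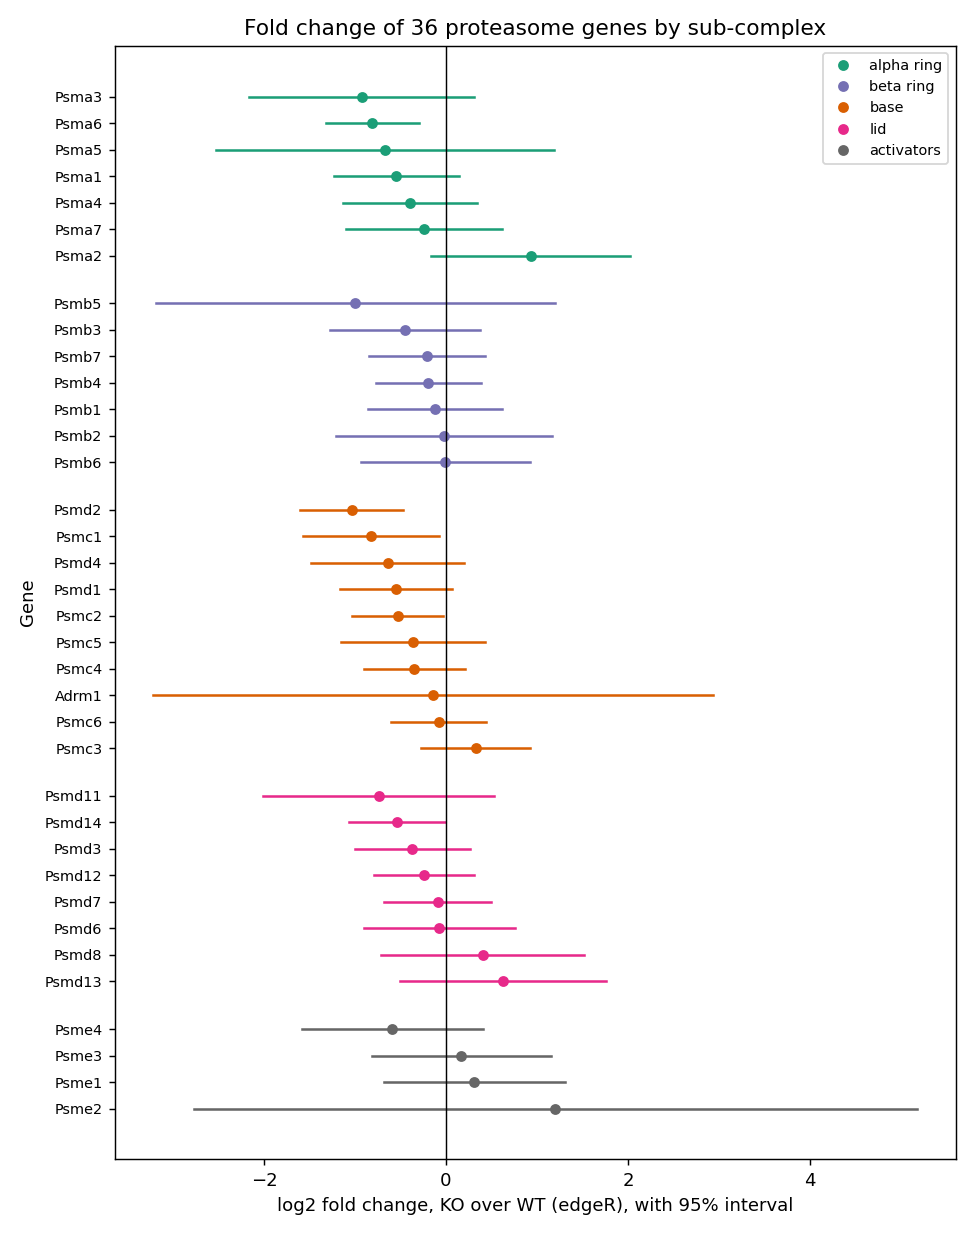
Log2 fold change of each of the 36 proteasome genes, KO over WT, on the x axis, with its 95% interval from edgeR, and genes on the y axis grouped by sub-complex. Of the 36 points 29 lie left of 0, and 31 intervals include 0.

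Core particle genes were negative in 13 of 14 cases (median -0.32), with 6 of 7 in the alpha ring (median -0.54) and 7 of 7 in the beta ring (median -0.19). Base genes were negative in 9 of 10 cases (median -0.45) and lid genes in 6 of 8 (median -0.17). Activator genes went the other way in 3 of 4 cases (median 0.24), among them Psme2 at very low WT counts. None of these groups had a called member, and the differences between their medians were not tested. Without single libraries the medians ran from -0.72 to -0.21 for the alpha ring, -0.45 to -0.18 for the beta ring, -0.49 to -0.34 for the base, -0.31 to -0.13 for the lid and -0.031 to 0.50 for the activators.

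Summed levels in TMM-scaled CPM separated the groups for the core particle as a whole, the alpha ring, the base and the lid. The core particle genes summed to 1733, 2170 and 1740 CPM in KO libraries and 2380, 2383 and 2331 CPM in WT libraries, a ratio of means of 0.796. The alpha ring genes summed to 818, 978 and 835 CPM in KO libraries and 1279, 1207 and 1118 CPM in WT libraries. The base genes summed to 2162, 2110 and 1865 CPM in KO libraries and 2706, 2739 and 2918 CPM in WT libraries. The lid genes summed to 1469, 1524 and 1572 CPM in KO libraries and 1660, 1760 and 1909 CPM in WT libraries. In each case every KO library lay below every WT library, and the ratio of means was 0.730 for the alpha ring, 0.734 for the base and 0.857 for the lid. The TMM factors ran from 1.02 to 1.06 in KO libraries and from 0.940 to 0.985 in WT libraries. As shares of all counts, without these factors, the core particle and the lid overlapped slightly between groups. The alpha ring and the base still separated.

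The beta ring and the activators overlapped between groups. Beta ring genes summed to 915, 1192 and 905 CPM in KO libraries and 1101, 1176 and 1212 CPM in WT libraries, and KO replicate 2 lay among the WT values. Activator genes summed to 281, 221 and 434 CPM in KO libraries and 286, 357 and 293 CPM in WT libraries, a ratio of means of 1.0. The ratio of core particle to base was 0.802, 1.03 and 0.933 in KO libraries and 0.879, 0.870 and 0.799 in WT libraries. The core to lid ratio was 1.18, 1.42 and 1.11 in KO libraries and 1.43, 1.35 and 1.22 in WT libraries. The activator to core ratio was 0.162, 0.102 and 0.249 in KO libraries and 0.120, 0.150 and 0.126 in WT libraries. All 3 ratios overlapped between the groups.

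**Figure D2:**
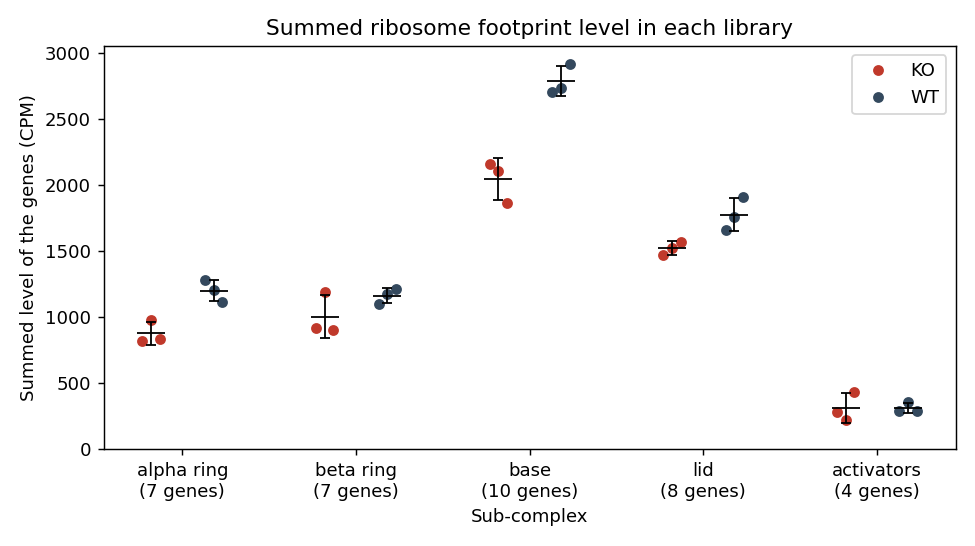
Summed level (CPM, y axis) of the genes of each sub-complex (x axis) in each library, with KO in red and WT in dark blue; each point is a library, and the black bars give the mean and SD of 3 libraries. The KO points lie below the WT points for the alpha ring, base and lid, and overlap them for the beta ring and activators.

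In the alpha ring, whose N-terminal tails form the gate of the core, the lowest p belonged to Psma6. Psma6 (ENSMUSG00000021024, plus strand of chromosome 12, 55384222 to 55418454 in GRCm38) had 207, 221 and 233 CPM in KO libraries and 398, 394 and 369 CPM in WT libraries. The libraries of each group were close together and well apart from the other group. Its log2 fold change was -0.81 (SE 0.24, edgeR adjusted p = 0.304), and it lay between -0.86 and -0.70 in the 15 other settings tried. DESeq2 gave an adjusted p of 0.0101.

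Psma1 had 164, 153 and 127 CPM in KO libraries and 173, 288 and 185 CPM in WT libraries. Its groups did not overlap, but KO replicate 1 and WT replicate 1 nearly met, and the log2 fold change was -0.54 (SE 0.32). Psma2, another ring subunit, had 167, 47.1 and 131 CPM in KO libraries and 53.5, 64.5 and 62.4 CPM in WT libraries. KO replicate 2 lay below all WT libraries and the other 2 KO libraries above them (log2 fold change 0.93, SE 0.51). It was the only alpha ring gene with a positive value. The other 4 alpha ring genes, Psma3, Psma4, Psma5 and Psma7, stood at -0.93, -0.39, -0.67 and -0.24, all with overlapping groups.

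The beta ring holds the 3 catalytic subunits, each of which cuts through an N-terminal threonine. Psmb5, the chymotrypsin-like subunit and the main target of bortezomib, had counts of 45, 59 and 59 in KO libraries and 29, 116 and 80 in WT libraries, or 2.14 molecule equivalents on average. Its levels were 17.6, 25.3 and 18.3 CPM in KO libraries and 17.6, 58.0 and 46.3 CPM in WT libraries, and WT replicate 1 lay at the KO level (log2 fold change -0.99, SE 1.03). At this depth a difference of that size was not detectable.

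Psmb6, the caspase-like subunit, had 84.3, 161 and 68.3 CPM in KO libraries and 97.3, 112 and 105 CPM in WT libraries. Its KO libraries lay on both sides of WT, and its log2 fold change of -0.0078 (95% interval -0.94 to 0.92) turned positive in several settings. Psmb7, the trypsin-like subunit, had 150, 286 and 211 CPM in KO libraries and 237, 251 and 260 CPM in WT libraries (log2 fold change -0.21, SE 0.30). The 3 catalytic genes thus had no separated groups, and KO replicate 2 was the highest KO library for each.

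Among the noncatalytic beta genes Psmb3 had 83.5, 173 and 131 CPM in KO libraries and 233, 182 and 115 CPM in WT libraries, with overlapping groups (log2 fold change -0.45, SE 0.39). Psmb1, Psmb2 and Psmb4 stood at -0.12, -0.023 and -0.19. The values of Psmb1 and Psmb2 turned positive in some settings, and that of Psmb4 stayed negative in all 15.

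The base carries the 6 ATPases (Psmc1 to Psmc6), which form the unfolding ring, and the large scaffold and ubiquitin-binding subunits. Psmd2, also called Rpn1, is a scaffold that docks ubiquitin receptors and the deubiquitinase Usp14. Psmd2 (ENSMUSG00000006998, plus strand of chromosome 16, 20651652 to 20663414) had the smallest p of the 36, with 260, 160 and 183 CPM in KO libraries and 387, 457 and 394 CPM in WT libraries. All KO libraries lay below all WT libraries, and its log2 fold change was -1.04 (SE 0.27, 95% interval -1.60 to -0.47, edgeR adjusted p = 0.167). It was not called by the main test, DESeq2 gave an adjusted p of 0.0034, and edgeR on molecule equivalents gave 0.032, a setting in which 11.4% of the 968 genes tested were called. Without single libraries its log2 fold change lay between -1.26 and -0.89.

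Psmd2 has a processed copy, so its fragments are shown beside it. Over 2393 aligned bases Psmd2 and the pseudogene Gm5422 (chromosome 10, 31248023 to 31251043) differ at 71, and the deposited table gave Gm5422 at most 1 count in a library. Coding bases 145 to 204 of Psmd2 (GENCODE M21 transcript) and the matching stretch of Gm5422 read as follows, with capitals at the 4 bases that differ:
Psmd2: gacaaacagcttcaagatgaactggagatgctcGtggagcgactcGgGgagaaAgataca
Gm5422: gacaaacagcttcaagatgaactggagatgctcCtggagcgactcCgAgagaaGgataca
A fragment from the first 28 of these bases reads the same in both genes, while one that covers a capital can be told apart. Counted over the whole coding sequence, 49.5% of the 28-base words of Psmd2 occur in another annotated transcript.

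Of the ATPases, Psmc1, Psmc2 and Psmc4 had KO libraries that all lay below WT. Psmc2 had 393, 319 and 465 CPM in KO libraries and 500, 508 and 694 CPM in WT libraries, with a log2 fold change of -0.53 (SE 0.23, edgeR adjusted p = 0.695). Psmc1 had 126, 162 and 96.2 CPM in KO libraries and 177, 315 and 186 CPM in WT libraries (-0.82, SE 0.35). In Psmc4 the KO libraries were tight, at 224, 220 and 207 CPM, against 264, 255 and 308 CPM in WT libraries (-0.34, SE 0.26).

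Psmc3 was the exception, with every KO library above every WT library. It had 241, 219 and 212 CPM in KO libraries and 178, 177 and 180 CPM in WT libraries, a log2 fold change of 0.33 (SE 0.28). Its sign was positive in all 15 other settings, and edgeR's unadjusted p was 0.258. The remaining ATPases Psmc5 and Psmc6 stood at -0.36 and -0.078, and Psmc6 turned positive in 3 settings.

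Psmd1 and Psmd4 also averaged lower in KO libraries. Psmd1, the scaffold paired with Psmd2, averaged 240 ± 65.3 CPM in KO libraries and 351 ± 79.4 CPM in WT libraries, and Psmd4, a ubiquitin receptor, 112 ± 48.5 CPM in KO libraries and 174 ± 43.3 CPM in WT libraries (SD, n = 3 each). The log2 fold change was -0.55 for Psmd1 (SE 0.29) and -0.64 for Psmd4 (SE 0.39), with overlapping groups. Adrm1, the receptor that recruits the deubiquitinase Uchl5, had counts of 51, 149 and 0 in KO libraries and 28, 91 and 51 in WT libraries, too few for a direction.

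In the lid the gene with the smallest p was Psmd14, the metalloprotease that strips ubiquitin chains from substrates. Psmd14 had 263, 291 and 373 CPM in KO libraries and 364, 429 and 553 CPM in WT libraries. KO replicate 3 passed WT replicate 1, so the groups overlapped slightly (log2 fold change -0.54, SE 0.25, edgeR adjusted p = 0.751). Psmd3 had 172, 163 and 271 CPM in KO libraries and 246, 244 and 295 CPM in WT libraries, with KO replicate 3 among the WT values (-0.37, SE 0.30).

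The remaining lid genes spread to both sides of 0. Psmd11, Psmd12, Psmd7 and Psmd6 stood at -0.74, -0.24, -0.091 and -0.071, and Psmd8 and Psmd13 at 0.40 and 0.63. All 6 had overlapping groups. Those of Psmd6 and Psmd7 changed sign in 4 and 2 of the 15 other settings.

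The activator genes gave no common direction. Psme1 and Psme2 encode the PA28 alpha and beta subunits, which are induced by interferon-gamma in many cells and favour release of peptides for MHC class I. Psme1 had 89.7, 69.8 and 137 CPM in KO libraries and 83.3, 101 and 54.3 CPM in WT libraries (log2 fold change 0.31, SE 0.47). Psme2 had counts of 71, 73 and 69 in KO libraries and 2, 67 and 0 in WT libraries. That is 1.29 molecule equivalents on average, and 2 WT libraries lay below 1, so no fold is given.

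Psme3, the nuclear PA28 gamma, averaged 97.3 ± 39.4 CPM in KO libraries and 86.6 ± 11.4 CPM in WT libraries (SD, n = 3 each; log2 fold change 0.17, SE 0.46). Psme4, the single-chain activator PA200, had 49.2, 67.2 and 150 CPM in KO libraries and 102, 141 and 159 CPM in WT libraries. KO replicate 3 lay within the WT range (log2 fold change -0.59, SE 0.46). The standard errors of the 4 activator genes ran from 0.46 to 1.86, against a median of 0.38 over the 36.

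**Figure D3:**
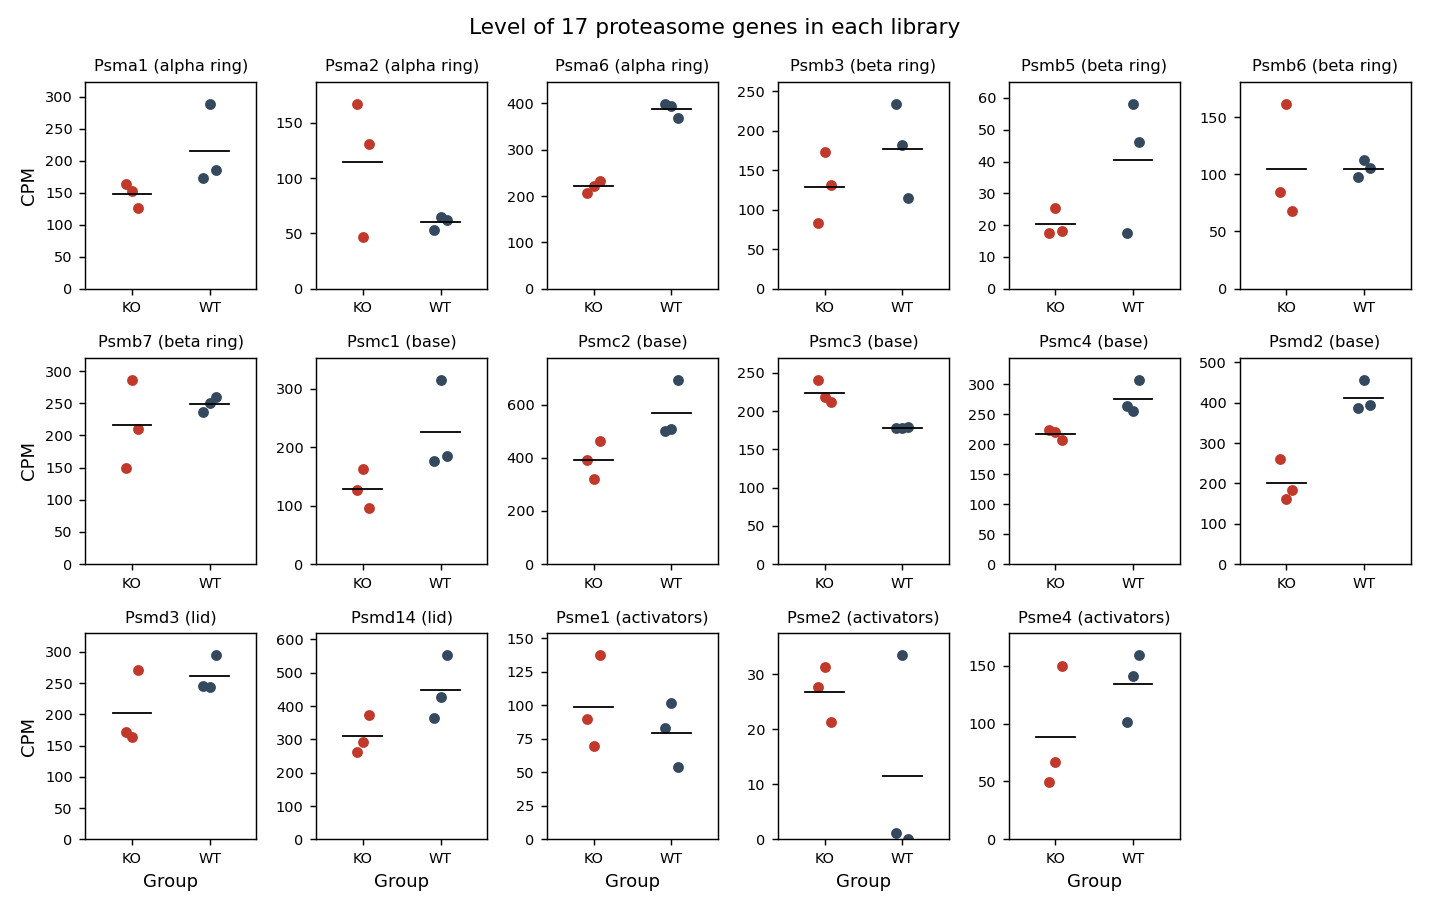
Level (CPM, y axis) of 17 proteasome genes in each library, with KO in red at the left and WT in dark blue at the right of each panel; each point is a library and the line the mean of 3. Psma6 and Psmd2 show the widest gaps between groups, and Psmc3 is the gene with all KO points above all WT points.

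Levels between genes can be compared only per length, here as CPM per kilobase of coding sequence. In KO libraries the 36 genes ran from 16.1 (Psme4) to 350 (Psmb4), and in WT libraries from 16.1 (Psme2) to 524 (Psma6), although core subunits are needed in equal numbers. The core particle genes alone spanned 13.6-fold in KO libraries and 10.2-fold in WT libraries. The median per kilobase was 193 in KO libraries and 248 in WT libraries for the core, 122 in KO libraries and 162 in WT libraries for the base, and 140 in KO libraries and 163 in WT libraries for the lid. For the activators it was 82.5 in KO libraries and 65.4 in WT libraries.

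Near-identical copies may bear on these levels, which was not tested. Protected fragments are short, and no source used here says how reads with several matches were counted. Of the 36 genes, 22 share at least 1 of their 28-base coding words with a transcript of another annotated gene, mostly processed pseudogenes. For 6 genes the shared part was 80% or more, namely Adrm1 (93.0%, with Gm9774), Psma3 (92.4%), Psma5 (90.4%), Psmb5 (86.7%), Psmb3 (85.9%) and Psme2 (80.6%, with Psme2b). These 6 had a median level per kilobase of 43.2 in KO libraries and 64.6 in WT libraries, and the 19 genes with under 5% shared had 166 in KO libraries and 188 in WT libraries. The 44 copies looked up had at most 5 counts in any library. Among the 6, Psmb3 had a high level, 210 in KO libraries and 287 in WT libraries. Psme4, which shares none, had 16.1 in KO libraries and 24.2 in WT libraries. As the use of reads with several matches is not known, the counts of the 6 genes are uncertain, and so is their place in the order of levels.

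Summed levels were lower in KO libraries both in the genes with little sharing and in the others. Of the 19 genes under 5%, 15 had negative log2 fold changes (median -0.24), and their summed level was 3669, 3724 and 3603 CPM in KO libraries, against 4316, 4415 and 4492 CPM in WT libraries. Of the 17 others, 14 were negative (median -0.45). The ratio of mean sums, KO over WT, was 0.832 for the 19 genes and 0.740 for the 17. This split was made after seeing the data, and the part of sharing in the lower KO level was not tested.

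**Figure D4:**
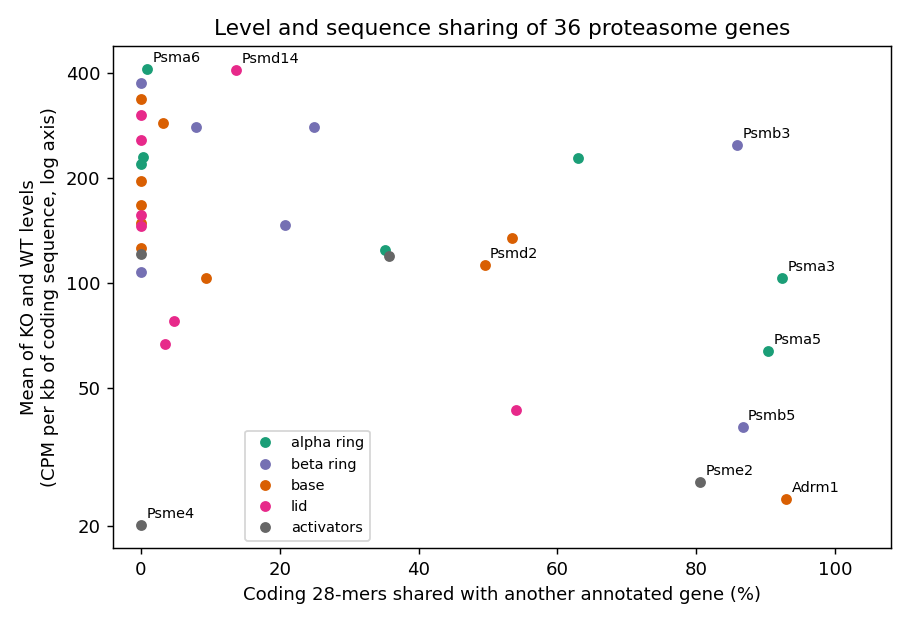
Share of a gene's 28-base coding words that occur in another annotated transcript (x axis, %) against its level, the mean of the KO and WT group means (CPM per kilobase of coding sequence, log y axis); each point is 1 of the 36 genes, coloured by sub-complex. Of the 6 genes at 80% or more, only Psmb3 lies among the high levels, and Psme4 is the lowest although it shares none.

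In mammals many proteasome genes are induced together by the transcription factor NRF1 (Nfe2l1) through antioxidant response elements, and some promoters carry CCAAT boxes. RefSeq promoter windows (250 bases before to 50 after the start, GRCm38.p6) were matched for 30 of the 36 genes, in 33 windows. The element core TGACNNNGC occurred, on either strand, in 6 of the 33 windows (18.2%, against 12.4% of all 32851 windows), those of Adrm1, Psmb5, Psmb6, Psmc6, Psmd12 and Psme4. The letters CCAAT occurred, on either strand, in 12 windows (36.4%, against 37.4% of all). The median log2 fold change was -0.19 for the 6 genes with the element and -0.42 for the 24 matched genes without it, of which 6 of 6 and 18 of 24 were negative. Of the 6, Adrm1 had too few counts for a direction, and Psmb6 and Psmc6 changed sign in some settings. It was -0.53 for the 12 with CCAAT and -0.29 for the 18 without.

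The 60 bases before the RefSeq start are shown for the catalytic subunits Psmb5 and Psmb6, which have the element there, and for Psma6 and Psmd2, which had the smallest p. Capitals mark TGACNNNGC in the first and second, CCAAT in Psma6 and nothing in Psmd2. They lie, in the same order, at chr14:54617996-54618055 (minus strand), chr11:70525297-70525356 (plus), chr12:55384162-55384221 (plus) and chr16:20651592-20651651 (plus):
Psmb5: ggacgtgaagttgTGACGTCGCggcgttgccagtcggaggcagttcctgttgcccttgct
Psmb6: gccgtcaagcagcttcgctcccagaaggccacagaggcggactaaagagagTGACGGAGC
Psma6: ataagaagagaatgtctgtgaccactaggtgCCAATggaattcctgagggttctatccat
Psmd2: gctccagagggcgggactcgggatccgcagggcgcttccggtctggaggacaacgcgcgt

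N4-acetylcytidine in human mRNA has been linked to stretches in which C recurs with a pair of any bases between. The run CNNCNNCNNCNNC occurred at a median of 1.15 per kilobase of coding sequence in the 36 genes and 2.45 in the 8087 tested genes with a coding sequence. Of the 36, 22 held at least 1 such run (61.1%, against 82.7% of tested genes), but their coding sequences were also shorter, with a median of 947 against 1473 bases. The median log2 fold change was -0.29 for the 22 genes with a run and -0.30 for the 14 without. The densest runs were in Adrm1 (12.3 per kilobase) and Psma7 (10.8 per kilobase), whose log2 fold changes were -0.14 (SE 1.44) and -0.24 (SE 0.40).

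Genes that work with the proteasome were read from the same fit. Of 39 genes in 5 lists 32 were tested, 22 were negative and none was called (median -0.33), where 51.0% of all tested genes were negative and 0.402% called. By edgeR 4 were lower and 1 higher at an unadjusted p under 0.05, against 3.79% and 2.7% of all tested genes in those directions. Of the inducible core subunits of the immunoproteasome, Psmb8 had no count in any library and Psmb9 had 26 counts in WT replicate 2 alone. Psmb10 had 329, 73 and 18 counts in KO libraries and 0, 19 and 0 in WT libraries, and was the 1 gene of these lists that was higher at an unadjusted p under 0.05. KO replicate 1 held most of its counts, and KO replicate 3 lay below WT replicate 2 in count and in CPM. The WT counts of Psmb10 and 1 of its KO counts lay below the modal count of their libraries, so no fold is given. Psmb11 and Psma8, subunits of the thymus and the testis, had no count.

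Of the 7 tested assembly chaperones 4 were negative (median -0.28). Psmg2 had 24.2, 95.5 and 28.5 CPM in KO libraries and 35.3, 19.5 and 14.5 CPM in WT libraries (log2 fold change 1.10, SE 0.91). Psmd10 had 66.3, 0.43 and 37.5 CPM in KO libraries and 78.4, 27.5 and 87.3 CPM in WT libraries (-0.89, SE 1.01). Both overlapped between groups. Pomp, which helps to close the core particle, averaged 82.3 ± 21.2 CPM in KO libraries and 78.4 ± 23.4 CPM in WT libraries (SD, n = 3 each). Of 5 tested ubiquitin and E1 genes 4 were negative (median -0.16). Uba1, the main ubiquitin-activating enzyme, had 717, 432 and 513 CPM in KO libraries and 685, 711 and 458 CPM in WT libraries, with overlapping groups (log2 fold change -0.16, SE 0.24). Ubb had counts of 4, 23 and 33 in KO libraries and 3, 70 and 82 in WT libraries, also overlapping.

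Of 11 proteasome-associated factors, with Sem1 counted among them, 9 were negative (median -0.42). Rad23b, which shuttles ubiquitinated proteins to the base, had 159, 435 and 384 CPM in KO libraries and 632, 575 and 815 CPM in WT libraries (log2 fold change -1.05, SE 0.31, edgeR adjusted p = 0.329). Ecpas, a scaffold that binds the 26S particle, had 135, 321 and 151 CPM in KO libraries and 381, 481 and 345 CPM in WT libraries (-0.99, SE 0.33). In both genes, 2 of these 11, every KO library lay below every WT library. Over the 5 lists this held for 4 of 32 tested genes, Vcp and Ufd1 being the others, against 7.93% of all tested genes.

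Of 8 genes for NRF1 and its processing 5 were negative (median -0.35). Vcp, the p97 segregase that extracts ubiquitinated proteins, had 355, 208 and 215 CPM in KO libraries and 505, 566 and 378 CPM in WT libraries (-0.90, SE 0.27, edgeR adjusted p = 0.346). Ufd1, a cofactor of p97, had counts of 67, 70 and 8 in KO libraries and 114, 197 and 85 in WT libraries. Nfe2l1 itself averaged 145 ± 7.34 CPM in KO libraries and 144 ± 27.5 CPM in WT libraries, a log2 fold change of 0.014 (95% interval -0.70 to 0.73).

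Vcp, Rad23b and Ecpas lie within one stretch of chromosome 4, from 42979963 to 58912749, a fact noticed after their values were seen. Of 60 tested genes in that stretch, these 3 included, 35 were negative (median -0.26, against 51.0% negative and a median of -0.016 over all tested genes) and 2 were called by edgeR (0.402% of all tested genes were). Vcp and Ecpas set the ends of the stretch, so its values are not separate support. Whether the stretch as a whole differed was not tested. None of the 36 proteasome genes lies there, and they are spread over 14 chromosomes.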

How the data were processed

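Ribosome-protected fragments were measured in 3 KO and 3 WT libraries of ID8 cells. Per the labels' protocols, adapters were cut with Cutadapt, reads of 25 to 34 nt were retained, Bowtie served to discard rRNA and tRNA reads, and HISAT2 (genome, GRCm38) and Bowtie (transcriptome) placed the remainder. The submitters' processing notes add featureCounts and DESeq2, with no role. No source used here gives the annotation, strand setting, use of reads with several matches or duplicate removal. The authors deposited raw whole-number counts per Ensembl gene for 53465 genes, of which 53360 matched GENCODE M21.

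Differences were tested on these counts in edgeR 4.0.16 under R 4.3.3 (robust quasi-likelihood fit, TMM factors, filterByExpr), with Benjamini-Hochberg adjustment over the 8200 genes kept. Standard errors are the absolute log2 fold change over the square root of F. Alternatives were DESeq2 (1.42.0), limma-voom (limma 3.58.1), other scalings and count filters, molecule equivalents as counts, the replicate number as a block, and each library left out. The modal count is the peak of a library's smoothed histogram of gene counts between 8 and 150. Shared 28-base words were counted over each gene's longest coding sequence. The fitting step was tested on simulated data. Intervals cover the spread between libraries. KO and WT libraries of the same number did not deviate together, so the numbers were not used as pairs.

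The members and gene lists were chosen with earlier results of these data known. Values in every library are given for the catalytic genes, the 2 genes of each sub-complex with the smallest p, the 2 with the largest positive log2 fold change and those whose groups do not overlap, and from the other lists for the 2 tested genes with the smallest p and any called gene. Pomp, Nfe2l1, Adrm1 and the inducible subunits other than Psmb10 were described in addition, after their values were seen. Paaf1, an assembly factor, was not matched.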

Additional observations from a re-analysis of the deposited data

How the results depend on the processing

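The replicate numbers were not taken as pairs, because KO and WT libraries with the same number did not deviate together (correlations across genes of -0.0167, -0.0026 and -0.0067). With the replicate number as a block, edgeR called 0 of the 36 genes and 38 genes in all, with 29 of the 36 negative and a median of -0.37, against -0.10 for all tested genes. Members called numbered 2 by DESeq2 and 1 on molecule equivalents, where 17 were tested, and 0 in the 7 remaining settings and without any single library. All tested genes called numbered 33 in the main test, 237 by DESeq2, 91 with no count filter, 110 on molecule equivalents, and 6 to 29 without single libraries. The fits without KO replicates 1, 2 and 3 called 15, 20 and 18 genes, and those without WT replicates 1, 2 and 3 called 29, 6 and 6. The median of the 36 moved to -0.19 with library totals, a scaling that moved the median of all tested genes to 0.093, so that the gap between them was -0.28 (24 of 36 negative), and limma-voom put all tested genes at -0.13 and the 36 at -0.35. Without single libraries the median of the 36 ran from -0.40 (without KO replicate 2) to -0.21 (without KO replicate 3), and 24 to 28 were negative. The gap to all tested genes lay between -0.38 and -0.16 in these fits and between -0.29 and -0.22 in the 9 other settings. Restricting the 36 to genes with under 5% shared words, chosen after seeing the data, gave -0.24. Psmb6 turned positive by DESeq2 (0.020), with DESeq2's size factors in edgeR (0.021), with library totals (0.11), with 50 counts in 3 libraries (0.011) and without mitochondrial and the 10 most abundant genes (0.0022), and ran from -0.45 to 0.22 without single libraries. Psmb7 ran from -0.46 to 0.0024 and Psme1 from -0.0017 to 0.52 without single libraries. Of the 36 genes 25 kept their sign in every setting that tested them. The cause of these changes was not tested. A common coefficient of variation of 0.99 and a mean per library of 1.29 to 33.2 molecule equivalents for each of the 36 genes limit the size of change that could be detected.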
